A study of Drosophila melanogaster with 4 samples.

Results

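Ubx, abd-A and Abd-B are the 3 Hox genes of the bithorax complex of Drosophila melanogaster, and their chromatin is described here in sorted neuroblast nuclei with and without knockdown of the homeodomain factor Cut. The genes were chosen by name, 3 of 13922 protein-coding genes on the 6 arms (X, 2L, 2R, 3L, 3R and 4). Peaks were taken from 3R:16656623-16972236 (build dm6, 316 kb), divided into the 3 gene bodies and the intervals Ubx to abd-A and abd-A to Abd-B. In this region lay 79 of 4238 H3K27me3 peaks of the control, 88 of 18692 of the knockdown, 70 of 25941 H3K27ac peaks of the control and 69 of 25519 of the knockdown.

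Hox proteins give the body segments their identity, with Ubx acting in the posterior thorax and anterior abdomen, abd-A in the middle abdomen and Abd-B in the posterior abdomen. The genes lie on the chromosome in the order of the segments they specify, and each is read from its higher-coordinate end. Where a Hox gene is off, Polycomb repressive complexes bound to response elements keep it silent and H3K27me3 lies over long domains. Where it is on, H3K27ac marks active promoters and enhancers, among them the large regulatory intervals between the genes. In the nervous system these genes also set how long neuroblasts live, and a pulse of Abd-A is known to precede the death of abdominal neuroblasts.

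The control (genotype Control) and the knockdown (genotype Cut_KD) were embryos collected for 16 h at 25 °C, and in both groups wor-gal4 drove UAS-dsRed. This driver is active in the nervous system from the time neuroblasts form, and the sources used here do not give how Cut was knocked down, what the control carried instead or the embryos' ages within the collection. Peak lists measure no transcript, so the knockdown of cut itself could not be checked. Sorted nuclei made up 0.5 to 3% of embryonic nuclei and were at least 50% dsRed-positive, so other cells can hold up to the remainder. Chromatin immunoprecipitation with sequencing gave 1 library for each mark and genotype, so no difference has a replicate check and no test between genotypes was possible. Depth is unknown because only peak lists were analysed, and depth changes how many peaks pass a threshold and how long they are. Nuclei of all segments were pooled, so both marks over the same bases cannot be told apart from each mark in different cells. The labels print 1 catalogue number for both antibodies, which bears on every overlap of the marks.

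Of 10 neuroblast markers, 8 lay within 500 bp of a control H3K27ac peak or under one, and 9 did for the knockdown, with wor, mira, insc, pros and SoxN among them in both. Over all protein-coding genes 11150 and 10700 of 13922 did, so these counts are near the background and do not set neuroblast genes apart. No peak lay at l(1)sc in either list. Markers of other cells had such peaks too, namely 5 of 5 in the control for each list of neuron, glial, muscle, epidermal and gut, blood or fat genes, and 4 or 5 of 5 in the knockdown. Their part in the results was not tested. Over the arms H3K27me3 cover was 4.16 times as long in the knockdown list (19.5 Mb) as in the control list (4.68 Mb), and H3K27ac cover 0.667 times as long (14.8 and 22.2 Mb).

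In the control the 3 genes carried H3K27me3 in graded amounts. As deposited, peaks covered 22.0% of Ubx, 38.1% of abd-A and 53.9% of Abd-B. The intervals lay between their neighbours in the deposited list, at 30.04% from Ubx to abd-A and 42.6% from abd-A to Abd-B. In the knockdown the grade was not seen, since the 3 genes were at 59.2, 56.9 and 57.3% and the intervals at 59.6 and 61.9%. The highest and the lowest of the 3 genes were 31.9 percentage points apart in the control and 2.25 points apart in the knockdown. Over the 6 arms the lists covered 3.50 and 14.6% of the tiled length. At least 50% of the body was covered in 1 of the 3 genes in the control and in 3 of 3 in the knockdown, as in 2.04 and 15.5% of all protein-coding genes. In bulk nuclei, fewer cells with a mark and less of the mark per cell cannot be told apart.

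**Figure D1:**
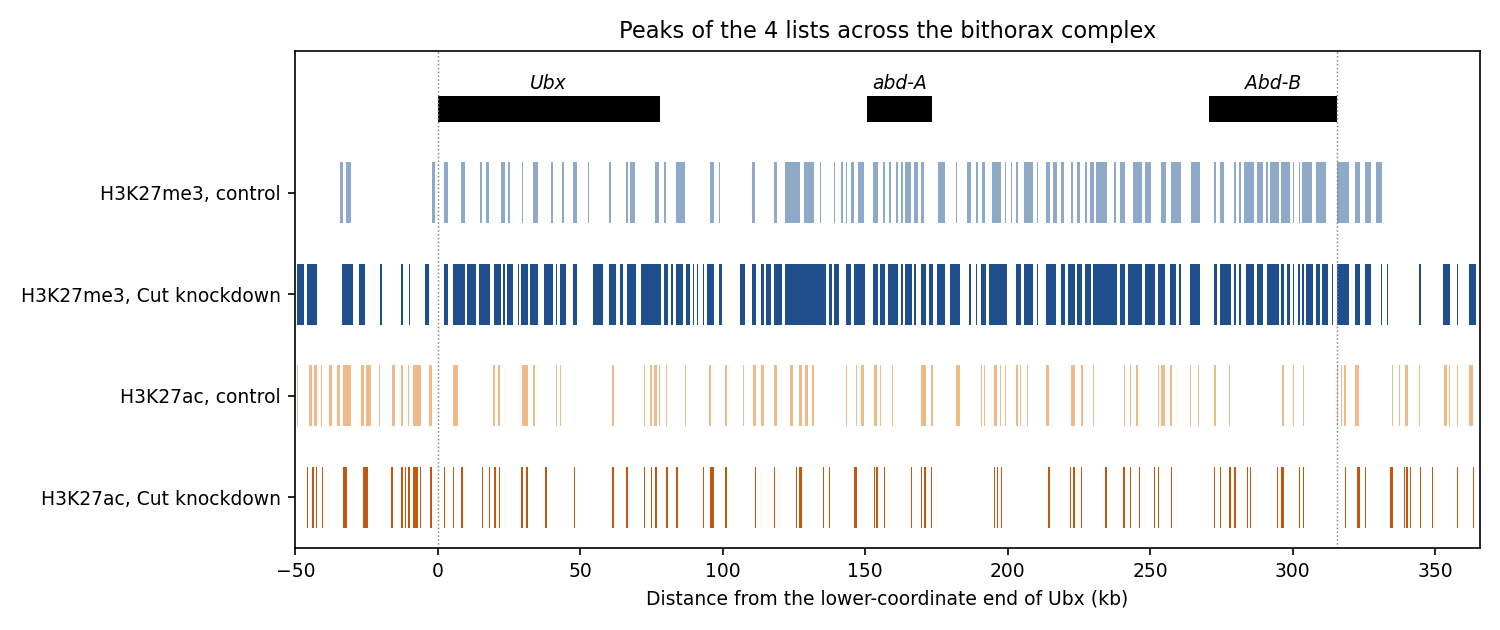
Peaks of the 4 lists along the bithorax complex and 50 kb on either side, as filled boxes at their positions in kb from the lower-coordinate end of Ubx, with the 3 gene bodies in black and the ends of the region as dotted lines. Control H3K27me3 grows denser from Ubx (22.0% covered) to Abd-B (53.9%), whereas the knockdown row is filled to between 56.9 and 61.9% in all 5 parts.

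As deposited, the difference between genotypes therefore fell along the complex. Of the 77.8 kb of Ubx, control peaks covered 17.1 kb and knockdown peaks 46.0 kb, a ratio of 2.69. The interval from Ubx to abd-A, which holds the bxd regulatory DNA of Ubx, had 21.9 and 43.4 kb, a ratio of 1.99. The ratio was 1.49 for abd-A (8.70 and 12.999 kb), 1.45 for the abd-A to Abd-B interval (41.4 and 60.1 kb) and 1.06 for Abd-B (24.3 and 25.8 kb). With a bound of 1.5 times the covered length, only Ubx of the 3 genes was higher in the knockdown, abd-A lay just under the bound and none was lower. Of all protein-coding genes 42.9% passed the bound upward and 1.26% downward, and among the 1060 genes with at least 500 bp in the control 56.7% passed it upward and 15.2% downward. A count of 1 of 3 is thus no more than the background. With a bound of 2 on -log10 q or on fold enrichment, all 3 genes were at least 1.5 times higher.

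**Figure D2:**
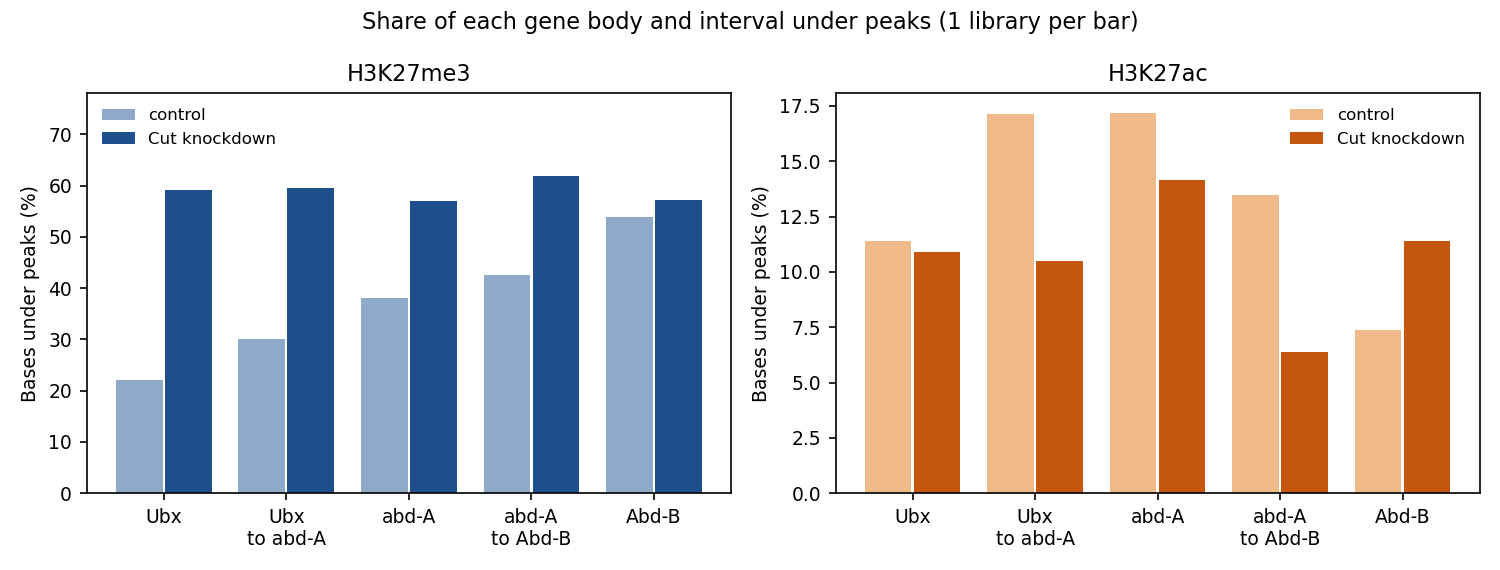
Share of the bases of each gene body and interval under peaks, in percent, for H3K27me3 on the left and H3K27ac on the right, with 1 bar per library, no error bars, and different vertical scales. The control H3K27me3 bars rise from 22.0 to 53.9% from left to right while the knockdown bars stay near 60%, and for H3K27ac Abd-B is the part where the knockdown bar is clearly the taller, at 11.4 against 7.38%.

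The order of the ratios, Ubx above abd-A above Abd-B, was the same in 5 of 6 alternatives that changed the H3K27me3 peaks counted. Ubx stood at 2.69 as deposited and at 11.3 with the bound on -log10 q, where q is the adjusted p of the peak caller. That bound left 4 of 16 control peaks in Ubx, with 4.04 kb of cover, and 19 of 20 knockdown peaks. The ratio for Ubx was 6.64 with the bound on fold enrichment over background. It was 1.80 when the weakest knockdown peaks by -log10 q were dropped until the list matched the control in covered length. The matching values were 1.49, 2.54, 2.43 and 1.43 for abd-A and 1.06, 1.53, 2.37 and 1.06 for Abd-B. For the interval from Ubx to abd-A they were 1.99, 11.3, 16.1 and 1.80. This interval was thus below Ubx as deposited, level with it under the -log10 q bound and after trimming, and above it under the fold bound. With the trimmed list the knockdown covered 39.6% of Ubx, 54.4% of abd-A and 57.3% of Abd-B, so part of the grade was present in that list too. Trimming can only lower the knockdown values. In the control, the bound on -log10 q left 5.19% of Ubx, 22.4% of abd-A and 37.4% of Abd-B covered. The bound on fold left 8.81, 22.4 and 24.1%. The order of the genes was thus kept, but each interval lay below both of its neighbours. From Ubx to abd-A the control cover was 5.10 and 3.61% under these bounds, and from abd-A to Abd-B 19.9 and 19.6%. The exception to the order of the genes came on leaving out each H3K27me3 peak that touched H3K27ac. This gave 1.17 for Ubx, 2.89 for the interval from Ubx to abd-A, 0.426 for abd-A and 1.06 for Abd-B. That left 30.7 of 113 kb of the region's cover in the control and 29.5 of 188 kb in the knockdown. A wide peak touches H3K27ac more readily, so wide peaks are left out more often.

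**Figure D3:**
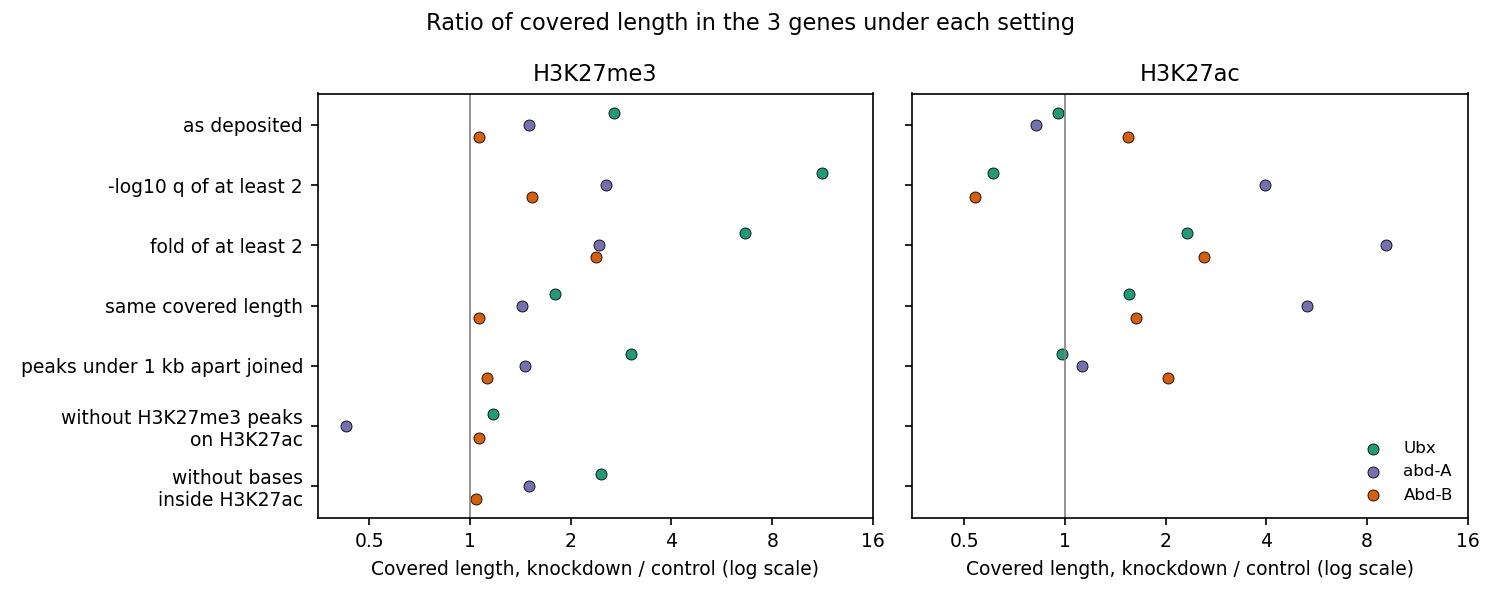
Ratio of covered length, knockdown over control, for the 3 genes under each setting, on a log scale with equality as a grey line. For H3K27me3 Ubx lies to the right of abd-A and Abd-B in all 7 rows, from 1.17 to 11.3, while for H3K27ac points of each gene fall on both sides of equality.

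By position, most of the control mark was found again in the knockdown. Of the control H3K27me3 bases in the region, 87.9% lay under knockdown peaks, with 88.4% in Ubx, 89.2% in abd-A and 83.0% in Abd-B. Of the 79 control peaks 76 met a knockdown peak (96.2%, exact Clopper-Pearson 95% interval 89.3 to 99.2%), against 59.7% over the 6 arms. Intervals cover counting error only. A wide peak meets another more readily, and so does a peak where the other list covers more. Control peaks covered 35.9% of the region and 3.50% of the arms, and knockdown peaks 59.7 and 14.6%. The shares of peaks and bases in this paragraph were not corrected for that cover. The 3 control peaks without a partner were one each in Ubx (477 bp), between Ubx and abd-A (755 bp) and between abd-A and Abd-B (415 bp). In the other direction 68 of 88 knockdown peaks met a control peak (77.3%, 67.1 to 85.5%), against 13.03% over the arms.

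The bases marked in the knockdown only came to 88.8 kb. They were 30.9 kb in Ubx, 24.1 kb from Ubx to abd-A, 5.24 kb in abd-A, 23.0 kb from abd-A to Abd-B and 5.63 kb in Abd-B. Put against the bases that were free of the mark in the control, 50.9% of those in Ubx, 37.1% of those in abd-A and 27.2% of those in Abd-B were under a knockdown peak, against 13.1% over the arms. Knockdown peaks without a control partner numbered 7 in Ubx, the widest at 3R:16711199-16714447 (3249 bp), 9 between Ubx and abd-A, 2 between abd-A and Abd-B, and 1 in each of abd-A and Abd-B. Control-only bases were 13.7 kb in all, of which Abd-B held 4.12 kb and the interval before it 4.17 kb.

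The same bases were also counted in windows of 5 kb. Of 63 windows in the region, 18 were at least 50% covered in the control (28.6%, background 1.52% of all windows on the arms) and 45 in the knockdown (71.4%, background 6.16%). The bound was met in the knockdown only by 28 windows (44.4%, background 4.92%) and in the control only by 1 (background 0.288%). In Ubx none of 16 windows met it in the control and 13 did in the knockdown, whereas in Abd-B 5 of 9 did in the control and 6 in the knockdown. Cover was higher in the knockdown in 53 of 63 windows (84.1%, background 56%) and lower in 10 (15.9%, background 7.54%). Of those 10, Abd-B held 5 of its 9 windows, while from Ubx to abd-A all 14 windows were higher. The background includes windows that are empty in both lists.

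**Figure D4:**
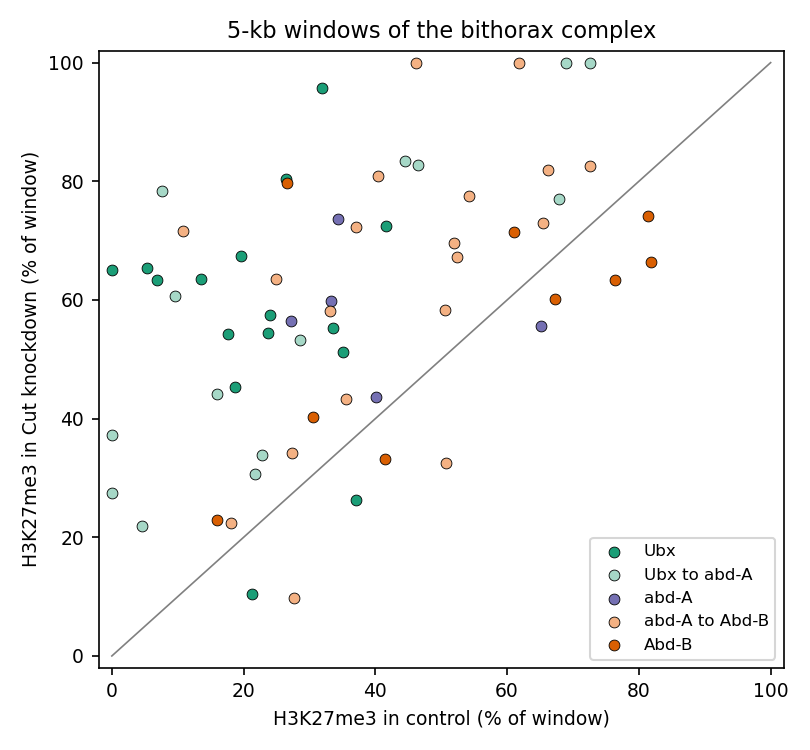
H3K27me3 cover of each of the 63 windows of 5 kb, in percent of the window, control on the horizontal and knockdown on the vertical axis, coloured by gene body or interval, with equality as a line. Windows of Ubx sit in the left of the plot and mostly above the line, and 5 of the 9 windows of Abd-B sit below it.

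In both genotypes the widest H3K27me3 peak of the region lay between Ubx and abd-A. In the control it was 3R:16778453-16783632 (5180 bp), and the next widest were in Abd-B, at 3R:16972072-16976396 (4325 bp), which runs past the gene's end, and 3R:16939457-16943137 (3681 bp). In the knockdown a peak at 3R:16778387-16792899 covered the same place and 14513 bp in all, the 10th widest of that list. It enclosed Glut3, a glucose transporter gene nested in the complex, which had 0.202 kb of its 1.71 kb covered in the control and was covered whole in the knockdown. The next widest knockdown peaks were 3R:16886571-16895041 (8471 bp) between abd-A and Abd-B, and 3R:16727770-16734786 (7017 bp), which ran over the higher-coordinate end of Ubx. Median peak width in the region was 1150 bp in the control and 1792 bp in the knockdown, against 816 and 754 bp over the lists. The longest stretch of the region with no H3K27me3 peak was at the same place in both genotypes, 3R:16755529-16766960 in the control (11.4 kb) and 3R:16756306-16762524 in the knockdown (6.22 kb), within lncRNA:bxd.

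Peak strength was read within each list from the deposited fold enrichment. In the knockdown list the median fold was 2.17 in Ubx, 2.16 from Ubx to abd-A, 2.23 in abd-A, 2.36 from abd-A to Abd-B and 2.42 in Abd-B, with 1.89 over the whole list. In the control list the same medians were 1.88, 1.91, 2.01, 1.94 and 1.95, with 1.86 over the list. Knockdown fold was thus higher toward Abd-B although cover was level along the complex. Of the knockdown peaks in the region 86 of 88 lay above the median fold of their list, and of the control peaks 55 of 79 did. The bound of 2 on -log10 q was met by 93.2% of knockdown peaks in the region (27.9% of that list) and by 36.7% of control peaks (22.3% of that list).

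**Figure D5:**
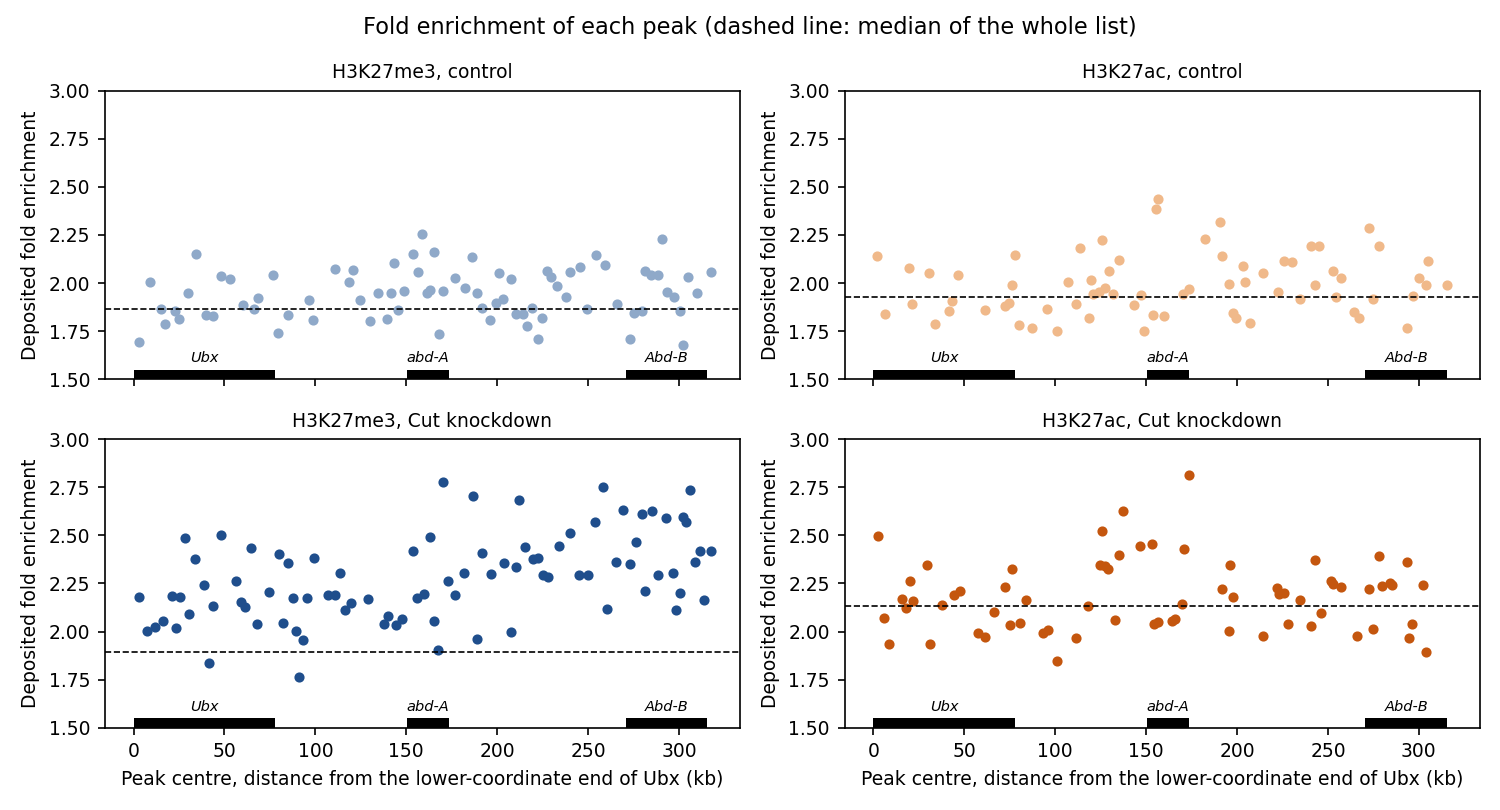
Deposited fold enrichment of each peak in the region against the distance of its centre from the lower-coordinate end of Ubx in kb, 1 panel per list, with the median of the whole list dashed and gene bodies in black. In the knockdown H3K27me3 panel 86 of 88 points lie above the dashed line and those of Abd-B are centred on 2.42 against 2.17 for Ubx, whereas H3K27ac points scatter around their line.

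By fold, the 3 leading H3K27me3 peaks of the region lay in abd-A, in Abd-B or in the interval between them in both genotypes. In the control they were 3R:16815068-16815783 in abd-A (fold 2.25, rank 77 of 4238), 3R:16947220-16947811 in Abd-B (2.23, rank 104) and 3R:16820720-16822750 in abd-A (2.16, rank 185). In the knockdown they were 3R:16826016-16827989 in abd-A (2.78, rank 34 of 18692), 3R:16913604-16915747 between abd-A and Abd-B (2.75, rank 45) and 3R:16961351-16963798 in Abd-B (2.74, rank 52). Of the 1000 peaks of highest fold, 31 in the control and 44 in the knockdown lay in the region. Its share of all peaks was 1.86% of the 4238 in the control and 0.471% of the 18692 in the knockdown. The 1000 are thus a larger part of the control list. The region held 2.42% of the control cover and 0.967% of the knockdown cover, and 3.53% of the knockdown cover after trimming to the control length.

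At the higher-coordinate ends, where transcription of the long transcripts begins, the 3 genes differed. At Ubx (position 16734426) the control H3K27me3 peak stopped 101 bp short of the end, and the knockdown peak ran across it. H3K27ac spanned this end in the control (3R:16734218-16734513, fold 2.14), and in the knockdown the nearest peak lay 960 bp away inside the gene. At abd-A (position 16830049) no control H3K27me3 peak lay within 2 kb of the end, the nearest being 2204 bp above it, whereas a knockdown peak spanned it (3R:16829151-16830327, fold 2.26). H3K27ac spanned it in both genotypes, and the knockdown peak (3R:16829799-16830071, fold 2.81) was the strongest H3K27ac peak of the region in its list. At Abd-B (position 16972236) H3K27me3 peaks of nearly the same extent spanned the end in the control (3R:16972072-16976396) and the knockdown (3R:16972070-16976372). H3K27ac spanned it in the control only (3R:16972112-16972463, fold 1.99), and the nearest knockdown peak was 2674 bp above it.

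H3K27ac covered 13.2% of the region in the control and 9.71% in the knockdown, against 16.6 and 11.1% over the arms. The difference between genotypes varied in direction among the genes. Peaks covered 11.4% of Ubx in the control and 10.9% in the knockdown (8.85 and 8.46 kb), 17.2 and 14.1% of abd-A (3.93 and 3.23 kb), and 7.38 and 11.4% of Abd-B (3.32 and 5.14 kb). Cover was lower in the knockdown from Ubx to abd-A (12.5 and 7.62 kb, ratio 0.612) and from abd-A to Abd-B (13.1 and 6.21 kb, ratio 0.474). At the bound of 1.5 times Abd-B was higher, at 1.55 times, and the other members were within it. Of protein-coding genes 11.5% were higher and 31.3% lower, and of the 7902 with at least 500 bp in the control 6.29% were higher and 52.9% lower. No window of the 63 reached 50% cover in either genotype (backgrounds 6.78 and 2.42%), and 24 were higher and 33 lower in the knockdown (38.1 and 52.4%, backgrounds 26 and 53.4%).

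The direction of these H3K27ac differences depended on the peaks counted. Over the region the difference of knockdown minus control was -10.98 kb as deposited, 3.66 kb with the control list trimmed to the length of the knockdown list and 10.8 kb with a fold bound of 2. In Abd-B it was 1.81 kb as deposited, 1.99 and 2.71 kb in those alternatives and -0.624 kb with the bound of 2 on -log10 q. In abd-A it was -0.700 kb as deposited and positive, between 1.05 and 2.87 kb, with the bound of 2 on -log10 q, the fold bound and the trimmed list. From abd-A to Abd-B it was negative in all 4 alternatives run for that interval, between -1.35 and -6.76 kb. The longest stretch with no knockdown H3K27ac peak lay there, at 3R:16830072-16848504 (18.4 kb). In the control the longest was inside Abd-B, at 3R:16934771-16949973 (15.2 kb), a stretch that held 3 whole knockdown peaks.

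Within the region, the control H3K27ac peaks of highest fold were 3R:16813032-16813223 (2.44, rank 351 of 25941 in the list) and 3R:16811866-16812028 (2.38, rank 526), both in abd-A, then 3R:16847283-16847665 (2.32, rank 795) in the interval before Abd-B. In the knockdown the next by fold after the peak at the end of abd-A were 3R:16793957-16794287 (2.63) and 3R:16782413-16782707 (2.52), both between Ubx and abd-A. The H3K27ac peaks of the region were of ordinary strength for their lists, with 43 of 70 above the median fold in the control and 41 of 69 in the knockdown. Of the control peaks 41 of 70 met a knockdown peak (58.6%, 46.2 to 70.2%), near the 58.3% over the arms.

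The marks lay on each other to different extents in the 2 genotypes. In the knockdown 97.1% of H3K27ac bases of the region were inside H3K27me3 peaks, and in the control 54.7% were, against 43.8 and 5.58% over the arms. For control and knockdown the shares were 19.0 and 96.0% in Ubx, 61.8 and 99.3% in abd-A, and 81.5 and 99.6% in Abd-B. By peaks, 5 of 14 H3K27ac peaks of Ubx met H3K27me3 in the control and 18 of 18 in the knockdown, and in the region 46 of 70 and 68 of 69 did. H3K27me3 itself covered 35.9% of the region in the control and 59.7% in the knockdown, against 3.50 and 14.6% over the arms. The overlaps were not corrected for that cover. Read from the other mark, H3K27ac peaks held 20.1% of control and 15.8% of knockdown H3K27me3 bases, against 26.5 and 33.3% over the arms. With the fold bound of 2 the order in the region turned, to 4.78 and 14.1%. The share of H3K27me3 under H3K27ac was higher in the knockdown in Ubx (9.82 and 17.6%) and Abd-B (11.1 and 19.8%), and was lower between Ubx and abd-A (32.1 and 16.5%) and between abd-A and Abd-B (21.7 and 10.3%).

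Bases without H3K27me3 in either genotype came to 113 kb of the region, and H3K27ac of either genotype covered 1.44% of them. The share was 32.2% over the 99.6 kb marked in both genotypes, 26.5% over the bases marked in the knockdown only and 3.27% over those marked in the control only. These shares were counted in the region only, so they have no background over the arms. Peak edges also recurred between lists. Of 158 control H3K27me3 edges 39.2% lay within 100 bp of a knockdown H3K27me3 edge, against 24.3% over the arms, and of 140 control H3K27ac edges 22.1% lay within 100 bp of a control H3K27me3 edge, against 3.53% over the arms. For the knockdown H3K27ac edges the values were 23.2 and 21.5%. Control H3K27me3 peaks covered 35.9% of the region and 3.50% of the arms, and edges lie closer where peaks are denser. These edge shares were not corrected for density. What sets the shared edges and the shared empty stretches was not tested.

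The other 14 genes that the annotation places inside the region are 3 coding and 11 noncoding, and several overlap each other or a Hox gene, so they are not independent. By the bound of 1.5 times, 9 had more H3K27me3 in the knockdown and none less, where 42.9 and 1.26% of protein-coding genes did, and 3 had more H3K27ac and 4 less, where 11.5 and 31.3% did. lncRNA:bxd, the transcript of the bxd regulatory interval, had 4.14 and 12.6 kb of H3K27me3 and 4.51 and 2.26 kb of H3K27ac. lncRNA:iab8, which runs through the regulatory interval between abd-A and Abd-B, had 40.6 and 58.8 kb of H3K27me3 and 12.6 and 6.18 kb of H3K27ac. lncRNA:iab4, the shorter precursor of mir-iab-4 in the same interval, was 56.8 and 95.2% covered by H3K27me3. The hairpin of mir-iab-4 and mir-iab-8, microRNAs from opposite strands of the same DNA that repress Ubx and abd-A, had no peak of either mark in any list (3R:16856275-16856342). The nearest H3K27me3 peaks were 3R:16855534-16856129 in the control, 146 bp below it, and 3R:16849911-16856185 in the knockdown, 90 bp below it.

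Beyond the region the 2 sides differed. Above Abd-B the control H3K27me3 went on over VhaM9.7-d, Actn3, AhcyL2 and CG18622 to 16987788, after which the next peak was 16.9 kb away. In the first 20 kb above Abd-B 48.4% was covered in the control and 42.5% in the knockdown, and in the 30 kb after that 0.923 and 19.9%. CG18622 had less cover in the knockdown (2.33 and 0.742 kb). So did 1.26% of all genes, and 15.2% of those with at least 500 bp in the control. Below Ubx the control held 3 peaks in 50 kb (7.29% covered), 1 of them 952 bp from the gene, and the knockdown 8 peaks (30.3%). Of 29 coding genes in both flanks 10 were higher in the knockdown and 1 lower, close to the shares of all genes.

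Set beside the Antennapedia complex, the other Hox cluster (3R:6661427-6999228), the values were alike in kind. Its H3K27me3 cover was 26.02% in the control and 47.0% in the knockdown, and its median fold was 1.94 and 2.13 against 1.95 and 2.28 in the bithorax region. The ratio of cover was also highest there in the longest gene, Antp (21.0 and 51.8%), and pb (22.8 and 45.3%) passed the bound with it, while lab, Dfd and Scr did not. All of lab, pb, Dfd and Scr had at least 1.5 times less H3K27ac in the knockdown, which none of the bithorax genes had, where 31.3% of all protein-coding genes did, and 52.9% of those with at least 500 bp in the control. With 1 library per group the difference between the complexes was not tested.

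Genes that act on the bithorax complex were counted by the same bound, against the 42.9% of all genes with more H3K27me3 in the knockdown. Among gap and pair-rule regulators, which set where each Hox gene is first switched on, 6 of 7 had more, with eve and ftz at no cover in the control and full cover in the knockdown and hb at 13.9 and 54.2%, and gt was at 84.1 and 87.1%. Of the Polycomb group genes, which keep the complex silent, 10 of 14 had more, among them the H3K27 methyltransferase gene E(z) (none and 77.7%), and Pc, Sce and pho had no H3K27me3 in either list. Of the trithorax group and acetylation genes, which oppose Polycomb, 8 of 8 had more, with trx at none and 17.3%. Of the insulator protein genes, whose products bind the boundaries of the complex, 6 of 9 had more, and CTCF had 0.775 kb in the knockdown only. The Hox cofactor gene hth had 9.32 and 20.9 kb and exd none in either. Median cover was 38.1 and 57.3% in the 3 bithorax genes, 13.9 and 84.8% in the gap and pair-rule genes, none and 28.4% in the Polycomb group and none and 10.9% over all genes.

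Known Hox targets gave the last list. H3K27me3 was higher in the knockdown by the bound in 9 of 11 and lower in 1. Over all protein-coding genes the shares were 42.9 and 1.26%, and among those with at least 500 bp in the control 56.7 and 15.2%. Dll, the limb gene that Ubx and Abd-A repress in the abdomen, had 5.65 and 15.8 kb, and dpp, which Ubx activates in the midgut, 3.88 and 14.02 kb. Of the cell death genes rpr had 31.3 and 69.4% of its body covered and grim 13.5 and 43.2%, whereas hid had less in the knockdown (0.695 and 0.397 kb) and no peak touched skl. H3K27ac differed by the bound in 4 of the 11, a share near that of all genes, of which 11.5% were higher and 31.3% lower. It was higher in salm (0.413 and 1.79 kb) and cas (1.00 and 1.53 kb) and lower in hid and wg.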

How the data were processed

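Per the labels' protocols, fixed nuclei were sorted, and their chromatin was fragmented (15 U micrococcal nuclease, then 3 min of sonication) and immunoprecipitated with 2 µg of H3K27me3 or 1 µg of H3K27ac antibody, with input DNA as control. FastQC, Bowtie2, MACS2, SICER and build dm6 are named per the submitters' processing notes, with versions and settings not given in the sources used here. The deposited files are broad peak lists, 1 per library, with each peak's fold enrichment (a ratio), -log10 p and -log10 q, and a score, all by the authors. Score was not used. Fold and -log10 q served to describe, rank and filter within a list.

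Peaks on the 6 arms were merged and covered bases counted in Python 3.11.15, after a test of the interval functions on simulated data. Coordinates are 1-based. Gene spans came from a RefSeq table of release 6, which gives no strand, so peaks at both gene ends replaced the planned use of transcript starts. Intervals are exact Clopper-Pearson at 95% (SciPy 1.17.1). A gene was called at 1.5 times the covered length, or 500 bp where 1 list had none, and a window of 5 kb at 50%. Genes named were the members, those inside the region, and at most 4 of each list. Hox targets beyond that number, CG18622 and its neighbours were named after their values were seen. Alternatives changed the bounds on -log10 q and fold, the list length, the gap between peaks, the region's ends, the overlap called shared and the treatment of H3K27me3 on H3K27ac. Peaks off the 6 arms were not used. Members and lists were chosen with earlier results of these data known. No test between genotypes was possible.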

Additional observations from a re-analysis of the deposited data

How the results depend on the processing

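For H3K27me3 over the region, the difference of knockdown minus control was 75.1 kb as deposited. It was 134 kb with a -log10 q bound of 2, 138 kb with a fold bound of 2, 51.6 kb at the same covered length, 75.6 kb with the region extended by 10 kb, 95.2 kb with peaks under 1 kb apart joined, 52.0 kb without bases inside H3K27ac and -1.22 kb without H3K27me3 peaks that overlapped H3K27ac. For H3K27ac it was -10.98 kb as deposited and, in the first 5 of those alternatives, -5.33, 10.8, 3.66, -12.6 and -7.82 kb. From Ubx to abd-A the H3K27ac difference of -4.83 kb turned to 2.85 kb with the fold bound and 0.146 kb with lists of equal length, and in Abd-B the difference (1.81 kb) turned to -0.624 kb with the -log10 q bound. The trimmed list is the longer one alone, so the same covered length lowers H3K27me3 and raises H3K27ac differences by construction. The fold bound keeps 32.6% of control but 80.3% of knockdown peaks for H3K27ac.

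Across gene bodies and intervals the H3K27me3 differences kept their sign in 28 of 30 alternatives and those of H3K27ac in 11 of 20, while the call at 1.5 times was kept in 19 of 30 and 9 of 20. With an overlap of at least 50% of the peak, 87.3% of control and 54.5% of knockdown H3K27me3 peaks were shared, and 38.6 and 50.7% of the H3K27ac peaks. With the -log10 q bound, 93.1% of control (27 of 29) and 35.4% of knockdown H3K27me3 peaks (29 of 82) were shared. For H3K27ac the values were 10.5 and 22.2%, from only 2 of 19 and 2 of 9 peaks. The share of H3K27me3 bases inside H3K27ac was, for control and knockdown, 3.51 and 2.26% with the -log10 q bound and 4.78 and 14.1% with the fold bound, which reverses the deposited order of 20.1 and 15.8%. The cause of these changes was not tested. No paired analysis was possible because each group holds 1 library. Depth is unknown, and bases outside peaks may carry a mark too weak for the authors' threshold.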
